A study of Homo sapiens with 6 samples.

Results

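ES2 is an established line of human ovarian cancer cells, and its baseline transcriptome was described from the 3 libraries of cells that received a control siRNA, chosen by their labels from the 6 RNA libraries of the study. The other 3 libraries came from cells transfected with siRNAs against UAP1, an enzyme of nucleotide sugar synthesis, and were not analysed here. All control cells carried the genotype label WT and grew in DMEM with 10% serum. They were transfected with a non-targeting siRNA in a lipid reagent and received fresh medium after 6 h. They were lysed for RNA 48 h after transfection, so they were control-transfected and not untouched cells. The labels do not say whether the 3 libraries came from separate cultures, and the spread between them may therefore be technical. Levels are given as FPKM (fragments scaled to the exonic length of the gene and to the size of the library), as mean ± SD over the 3 libraries (n = 3) unless single libraries are named. A gene was counted as expressed at a mean FPKM of at least 1. With a single group no test was made.

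Carcinomas of the ovary are sorted by the tissue they resemble. High-grade serous carcinoma typically carries the Müllerian factors PAX8 and WT1 and the mucin MUC16, whereas clear cell carcinoma carries the aspartic protease NAPSA. Carcinoma cells that lose the junction protein E-cadherin (CDH1) and gain vimentin and the factors ZEB1, SNAI2 and TWIST1 are said to have a mesenchymal character. ES2 was set up from a tumour first described as clear cell, and its labels here name it high-grade serous carcinoma.

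The control libraries held 21267240, 25054159 and 24842621 counts over 58735 annotated genes. Pairs of libraries correlated at Pearson r of 0.982 to 0.990 on log2 values across 10353 expressed protein-coding genes, which share libraries and are not independent replicates. Replicate 1 stood at least 2-fold above both others in 17 protein-coding genes of mean FPKM 5 or more, furthest in HSPA1B, HSPA1A and DNAJB1, and replicate 3 at least 2-fold below both in 17, furthest in CCL2. Their values are given with the spread of the genes further on. In these bulk libraries fewer cells that express a gene and less RNA per cell cannot be told apart.

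Of 19951 protein-coding genes, 10353 (51.9%) were expressed, 4437 had no count in any library, and 323 reached a mean FPKM of 100. The share of 51.9% is the one to set beside each count of list members below. A count near it does not mark out its list. Expression was shared by the libraries: 10058 protein-coding genes reached FPKM 1 in all 3 and 10604 in at least 1 of them. The median level of expressed protein-coding genes was 7.90 FPKM. Non-coding classes were sparse, with 323 of 7629 lincRNA genes (4.23%) and 351 of 5583 antisense genes at FPKM 1 or more. The 100 most abundant nuclear protein-coding genes took 24.04 ± 0.953% of all nuclear protein-coding FPKM, and 651 genes together held 50%.

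The nuclear protein-coding gene of highest level was MMP1 (ENSG00000196611, chr11:102789920-102798160 in GRCh38), the interstitial collagenase that cuts fibrillar collagens outside the cell. It stood at 3622, 3538 and 3581 FPKM in replicates 1 to 3, a mean of 3580.4 ± 41.9, and held 1.69% of nuclear protein-coding FPKM. The elongation factor EEF1A1 followed at 2199 ± 218, the actin-sequestering peptide TMSB10 at 2001 ± 265 and the chromatin protein HMGA1, which bends AT-rich DNA, at 1382 ± 172. MMP1 exceeded EEF1A1 in every library. Mitochondrial genes were left out of this ranking, and with them the mean levels of protein-coding genes reached 7390 FPKM. Where the length of the gene was taken as the median of its transcripts and not as all its exons joined, EEF1A1 came first at 3795 and MMP1 second at 3580.4.

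Most of the other 16 genes among the 20 of highest level served general functions: ribosomal proteins (RPS2, RPL8, RPS12, RPS18, RPL41, RPL7A, RPL13A), the elongation factor EEF2, the chaperone HSP90AB1, the RNA-binding protein YBX1, actin (ACTB), the glycolytic enzyme GAPDH and the iron store FTL. The 84 ribosomal protein genes took 10.3 ± 0.740% of nuclear protein-coding FPKM. Genes outside these general functions reached the same range. KRT81, a keratin of the hair shaft, stood at 906, 609 and 883 FPKM in replicates 1 to 3. CYR61, a matricellular protein and YAP target, stood at 946.1, 719.7 and 730.2 FPKM. PTX3, a soluble pattern recognition protein of innate immunity, stood at 1123, 584 and 468 FPKM, so that replicate 1 was well above the others, and its mean of 725 ± 350 was 526 without that library. Several of these genes have near-identical copies elsewhere (the ribosomal protein, EEF1A1 and KRT81/KRT86 families), and no source used here tells how reads were divided among the copies.

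**Figure D1:**
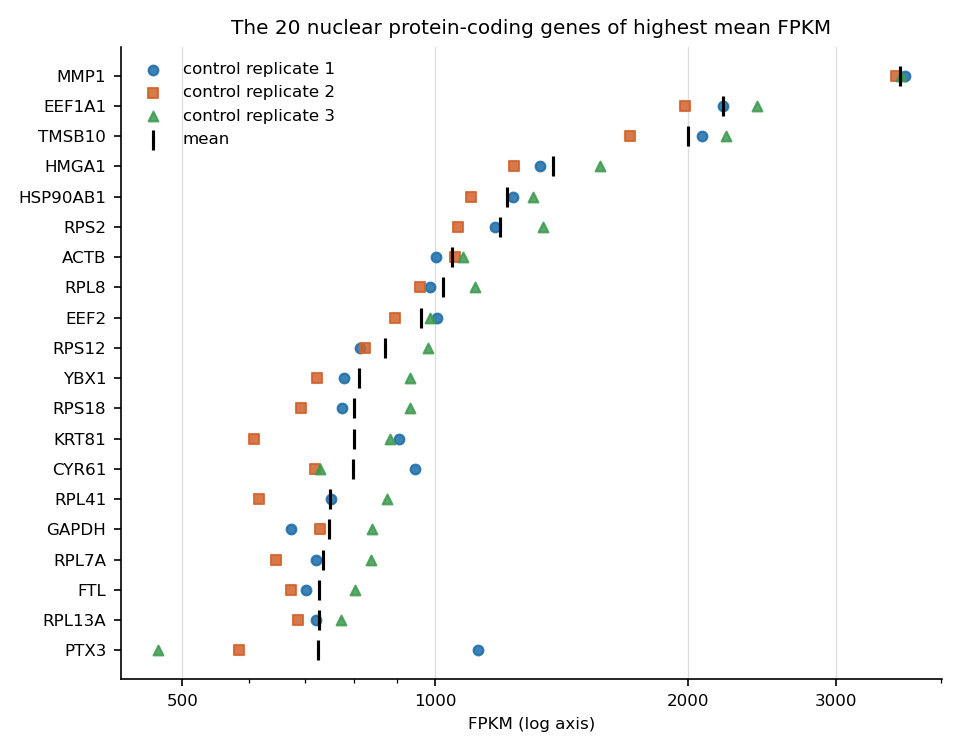
FPKM (log axis) of the 20 nuclear protein-coding genes of highest mean FPKM, with 1 point per control library and a bar at the mean. MMP1 lies between 3538 and 3622 in all 3 libraries, and PTX3 spans 468 to 1123 with replicate 1 the highest.

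Promoter sequences show what genes of a given level have in common besides the level itself. RefSeq promoters (GRCh38.p14) matched 15336 of 19938 nuclear protein-coding genes. In the 250 bases before the start, the TATA box letters TATAAA on the sense strand were in 14.8% of genes without a count, 3.00% of those at 1 to 10 FPKM, 2.95% of those at 10 to 100 FPKM and 7.75% (20 of 258) of those at 100 FPKM or more, against 6.66% of all. All 20 in the top tier began 40 to 20 bases before the start, the place where a TATA box works. At that place the share was 1.28% at 10 to 100 FPKM and 3.68% over all promoters. Only the exact letters TATAAA were counted, so promoters with a variant of the TATA box are missing from these shares. The AP-1 letters TGAGTCA on either strand were in 3.88% of the top tier and 3.16% of all, the TEAD letters GGAATG on either strand in 10.9% and 10.0%, and the GC box letters GGGCGG on either strand in 73.3% and 56.7%. The median ratio of observed to expected CpG was higher in each tier, from 0.301 without counts to 0.872 at 100 FPKM or more.

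The promoters of 4 abundant genes, picked after their levels were seen, show TATAAA letters, CpG-rich stretches or both. Each is given as the 150 bases before the RefSeq start, with the 4 motifs in capitals in either orientation. CTGF (RefSeq name CCN2; matricellular protein, 384 ± 79.1 FPKM) lies on the minus strand at chr6:131951373-131951522, CPA4 (carboxypeptidase A4, a secreted peptidase, 429 ± 17.8 FPKM) on the plus strand at chr7:130293011-130293160, CXCL8 (the neutrophil chemokine interleukin 8, 202 ± 68.0 FPKM) on the plus strand at chr4:73740419-73740568, and TMSB10 on the plus strand at chr2:84905506-84905655.
CTGF: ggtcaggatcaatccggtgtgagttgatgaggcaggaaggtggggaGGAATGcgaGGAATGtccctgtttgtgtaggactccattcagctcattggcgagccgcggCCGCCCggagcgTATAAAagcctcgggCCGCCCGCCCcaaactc
CPA4: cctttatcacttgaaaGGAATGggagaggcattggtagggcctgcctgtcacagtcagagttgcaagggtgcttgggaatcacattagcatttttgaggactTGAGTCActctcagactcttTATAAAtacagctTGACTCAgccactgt
CXCL8: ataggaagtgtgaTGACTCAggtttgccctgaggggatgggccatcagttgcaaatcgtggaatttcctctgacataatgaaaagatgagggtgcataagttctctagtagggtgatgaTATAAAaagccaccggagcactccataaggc
TMSB10: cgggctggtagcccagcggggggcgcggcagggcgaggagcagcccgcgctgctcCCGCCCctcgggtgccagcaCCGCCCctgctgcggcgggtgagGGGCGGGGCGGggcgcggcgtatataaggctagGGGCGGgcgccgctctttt

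CTGF, CPA4 and CXCL8 each carried TATAAA, ending at position -27, -23 and -26 when -1 is the base before the start. CTGF had GGAATG at -104 to -99 and at -95 to -90, and 3 GC boxes on the antisense strand. CPA4 had AP-1 letters at -48 to -42 and -15 to -9, and CXCL8 at -137 to -131. CPA4 also had GGAATG at -134 to -129. TMSB10 had none of these 3 motifs in the exact letters searched. Its stretch does hold a close variant of TATAAA shortly before its last GC box, which the search did not count. TMSB10 therefore cannot be read as lacking a TATA box. It had 5 GC boxes, some overlapping, and a GC content of 78.7% over the 150 bases, whereas the CPA4 stretch held 46% GC and not one CpG. These are matches of letters and not measured binding.

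Most of the lineage markers went against the histology label. Of 20 serous and Müllerian markers only KRT7, MECOM and LYPD1 were expressed (15%, against 51.9% of all protein-coding genes), and LYPD1 shares 49% of its exonic bases with another gene. The count was 7 of 20 at a mean TPM of at least 1, and 5 of 20 with transcript lengths, where PGR stood at 4.50 and MUC1 at 2.14. PAX8, the lineage factor of the Müllerian tract, stood at 0.240, 0.0734 and 0.0936 FPKM in replicates 1 to 3. WT1, a nuclear marker of serous carcinoma, stood at 0.420, 0.443 and 0.595 FPKM. It lay below the cutoff of 1 in FPKM but was among the 7 that passed it in TPM. SOX17 and MUC16 had no count in any library, and a count of 0 allows up to 0.0179 and 0.000954 FPKM (3 counts over the 3 libraries; counting error only). KRT7, a keratin of simple epithelia, was the only member above 10 FPKM, at 92.8, 65.4 and 86.9. The cells are therefore named control ES2 cells here, with no histotype.

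Of 12 clear cell markers 6 were expressed (50%, against 51.9% of all protein-coding genes). TFPI2, an inhibitor of serine proteases of the clotting pathway, stood at 133.9, 109.5 and 87.3 FPKM, followed by GLRX (glutaredoxin) at 8.98 ± 0.819, SOD2 (mitochondrial superoxide dismutase) at 4.71 ± 0.180 and SPP1 (osteopontin) at 2.85 ± 0.867. With transcript lengths TFPI2 stood at 166, GLRX at 92.5, SOD2 at 78.5, the annexin ANXA4 at 10.7 and SPP1 at 4.36, so the lower levels depend on the length used. The defining NAPSA had only 4 counts in all. Of 12 mucinous and intestinal markers GATA6, a zinc finger factor of endoderm and mesoderm, was the one expressed, at 10.8 ± 2.64 FPKM, and CDX2, MUC5AC and HNF4A had no count.

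Epithelial identity genes were nearly silent apart from keratins. EPCAM (an adhesion protein of epithelia), CDH1 (E-cadherin), GRHL2 (a factor that keeps epithelial genes active) and ESRP1 (an epithelial splicing factor) had no count in any of the 3 libraries. Of 28 epithelial markers 4 were expressed (14.3%): KRT18 at 111 ± 18.1, KRT7 at 81.7 ± 14.4, KRT8 at 21.9 ± 5.10 and the claudin CLDN1 at 1.42 FPKM. KRT18 pairs with KRT8 in filaments, and its level per length was 5.14-fold that of KRT8 with the same order in all 3 libraries. KRT18 came before KRT7 in replicates 1 to 3, but with transcript lengths in place of joined exons KRT7 led at 311 and KRT18 stood at 229. KRT8 stood at 80.0 by that length, so the fold of KRT18 over KRT8 was smaller.

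Mesenchymal genes made the opposite picture, with 17 of 20 expressed (85%) and a median of 3.89 FPKM, against 1.32 FPKM for all protein-coding genes. Vimentin (VIM), the intermediate filament of mesenchymal cells, stood at 327, 404 and 466 FPKM. N-cadherin (CDH2) stood at 32.0, 29.5 and 28.7 FPKM. The factors that repress epithelial genes were led by TWIST1 at 18.7 ± 2.31, then PRRX1 at 17.3 ± 5.20, TWIST2 at 15.3 ± 3.55, SNAI2 at 12.8 ± 3.41 and ZEB1 at 10.9 ± 0.590, with ZEB2 at 2.96 and SNAI1 at 1.32. The order of TWIST1 and PRRX1, of PRRX1 and TWIST2, and of SNAI2 and ZEB1 changed between libraries, whereas TWIST2 stood above SNAI2 in each. FN1 (fibronectin) reached 114 ± 30.9 and SPARC, a collagen-binding glycoprotein, 68.3 ± 5.13. CDH11, a cadherin of osteoblasts and stroma, had no count.

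This mesenchymal set did not extend to fibroblast genes. COL1A1, the first chain of type I collagen, stood at 86.1, 146 and 78.3 FPKM, whereas COL1A2, which codes for its partner chain, had 6, 2 and 5 counts (mean 0.0168 FPKM). The fibroblast proteoglycans DCN and LUM stood at 0 and 0.0140 FPKM, and 2 of 12 fibroblast markers were expressed (COL1A1 and PDGFRA, 4.71). None of 16 leukocyte markers was expressed; their levels summed to 0.391 to 0.516 FPKM in the 3 libraries, with CD3E at 0 and PTPRC at a single count.

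Genes usually tied to blood vessels were high in part. ESM1, a proteoglycan secreted by endothelium, stood at 163, 128 and 144 FPKM. TIE1, an orphan receptor kinase of endothelium, stood at 58.5, 51.4 and 57.4 FPKM, and CDH5 (VE-cadherin) at 22.6, 21.1 and 27.5 FPKM. Each kept to a narrow range, with ENG (endoglin, a TGF-beta co-receptor) at 93.4 ± 10.7 and the guidance receptor ROBO4 at 3.10. The defining PECAM1 and VWF stood at 0.201 ± 0.123 and 0.0371 ± 0.0147, so 6 of 17 endothelial markers were expressed and the order ESM1, ENG, TIE1, CDH5, ROBO4 held in every library. With transcript lengths TIE1 stood at 149, above ENG at 121.

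Lists of other lineages varied in the share expressed. The melanocyte and neural crest list had 5 of 11 expressed (45.5%, against 51.9% of all protein-coding genes), led by the neurotrophin receptor NGFR at 15.5 ± 3.98 and MITF, the melanocyte master factor, at 7.74 ± 1.81, while SOX10 stood at 0.0253. Neuronal genes had 3 of 12, with the neurofilament NEFL at 11.6 ± 2.71 and the synaptic protein SNAP25 at 3.43 ± 0.684, and CHGA and STMN2 at 0. BNC1, a zinc finger factor of basal keratinocytes and mesothelium, stood at 31.6, 28.3 and 33.1 FPKM and was the only one of 10 mesothelial markers expressed. Of 12 gonadal stromal markers CYP11A1, the enzyme that starts steroid synthesis, and the hormone AMH were expressed, at 1.87 ± 0.536 and 1.54 ± 0.372, and the factor FOXL2 and the receptor FSHR had no count. Of 14 germ cell and pluripotency markers the transcription factor TFAP2C was expressed, at 2.45 ± 0.277, and NANOG and POU5F1 stood at 0 and 0.0612.

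**Figure D2:**
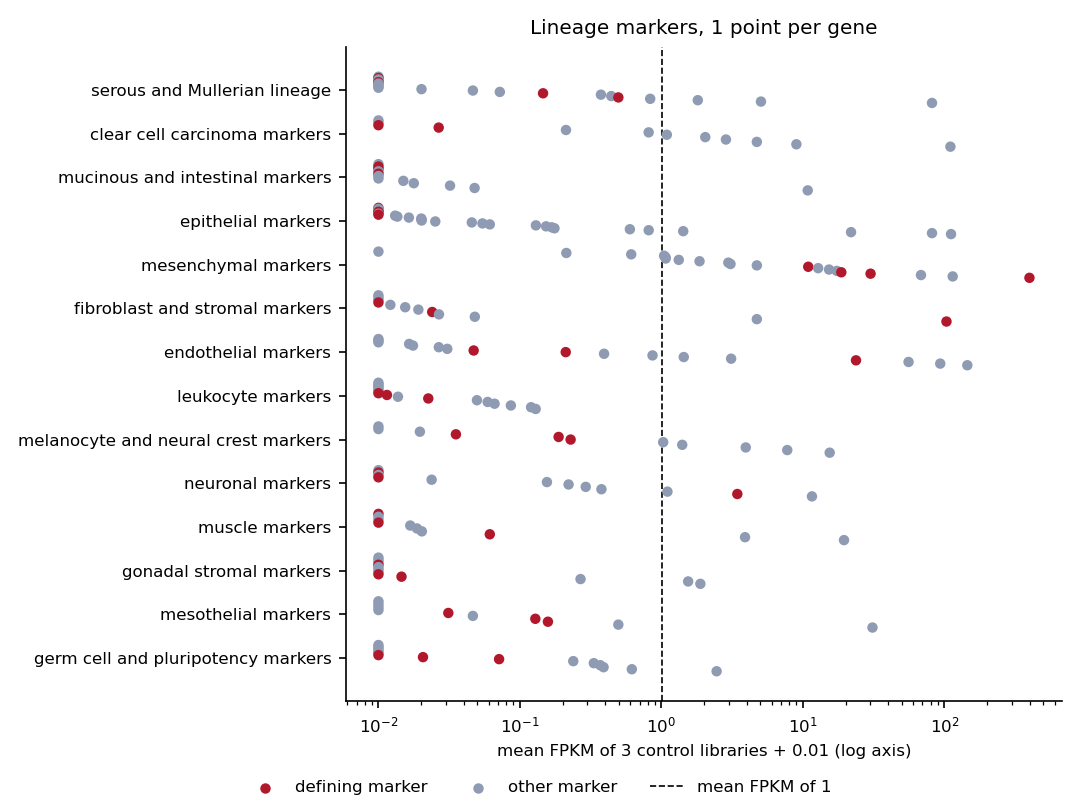
Mean FPKM of the 3 control libraries + 0.01 (log axis) for the markers of 14 lineage lists, with 1 point per gene, defining markers in red and a dashed line at a mean FPKM of 1. Mesenchymal markers lie to the right of the line in 17 of 20 cases, serous and Müllerian markers in 3 of 20, and leukocyte markers in none of 16.

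Antigens of the testis were expressed by 8 of 24 genes (33.3%, against 51.9% of all protein-coding genes). PRAME, a nuclear receptor co-repressor found in many tumours, stood at 77.4, 66.4 and 76.3 FPKM. SPANXB1, a sperm protein coded on the X chromosome, reached 69.3 ± 17.9, MAGEA3 38.3 ± 7.60 and MAGEA12 19.2 ± 2.48. MAGEA3 and the SPANX genes have near-identical relatives, so the split of their reads is uncertain.

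HOX factors, which lay down position along the body axis, were expressed most in the HOXB cluster. There 8 of 10 genes were expressed, against 5 of 11 in HOXA, 6 of 9 in HOXC and 3 of 9 in HOXD. HOXB9 stood at 31.3, 27.2 and 26.3 FPKM, HOXB2 at 29.9, 22.3 and 20.4 and HOXB7 at 21.1, 19.3 and 21.4. HOXB9 exceeded HOXB2 in every library, but with transcript lengths HOXB2 came first, and HOXB2 and HOXB7 changed order in replicate 3. No gene of the other clusters reached 10 FPKM: HOXC8 led with 6.11 ± 0.298, then HOXD9 with 5.53 ± 0.754 and HOXA5 with 4.66 ± 1.65. HOXA7, HOXC5, HOXD1, HOXD3 and HOXD4 share 50% or more of their exonic bases with other genes, and their low values cannot be read as absence.

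**Figure D3:**
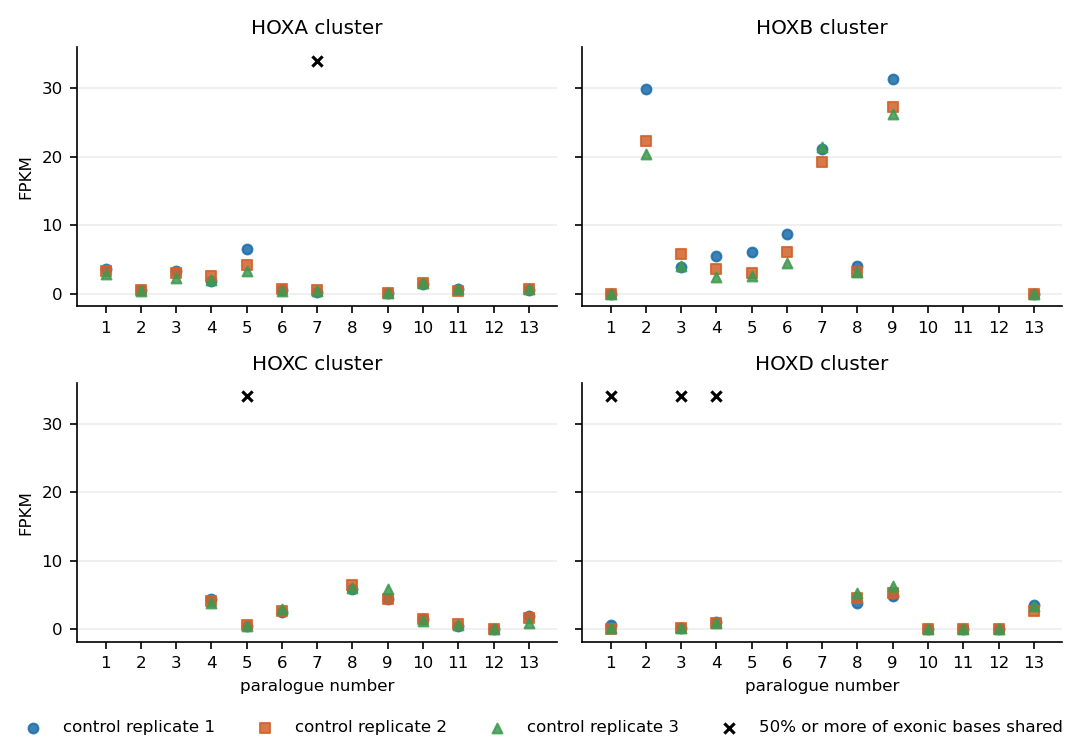
FPKM of each HOX gene by paralogue number in the 4 clusters, with 1 symbol per control library; a cross marks genes that share 50% or more of their exonic bases with other genes. HOXB2, HOXB7 and HOXB9 lie at 19.3 to 31.3 FPKM and the rest below 10.

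Over all transcription factors in the annotation deposited with the tables, 781 of 1548 (50.5%) were expressed, close to the 51.9% of all protein-coding genes. Homeobox factors were expressed less widely, at 56 of 191 (29.3%), and bZIP factors more widely, at 32 of 48 (66.7%). Below HMGA1 and YBX1 the highest factor was FOSL1 (FRA1, an AP-1 subunit) at 386.6, 360.5 and 407.3 FPKM. ATF4, the factor of the integrated stress response, stood at 118 ± 15.6, HIF1A, the oxygen-regulated factor, at 109 ± 7.74, the ETS factor ELK3 at 58.1 ± 3.48 and the forkhead factor FOXD1 at 42.4 ± 5.28. These were named after their levels were seen.

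On the cell surface, integrins were led by the shared beta chain. ITGB1 stood at 192.7, 192.6 and 192.0 FPKM, and the laminin-binding partners ITGA3 and ITGA6 at 72.5 ± 5.06 and 64.1 ± 6.54. ITGA3 exceeded ITGA6 in all 3 libraries. The beta chain ITGB5 (28.0 ± 4.66) and the fibronectin receptor chain ITGA5 (23.4 ± 1.93) followed, and 14 of 26 chains were expressed (53.8%, against 51.9% of all protein-coding genes). ITGB3 shares 50% or more of its exonic bases with another gene.

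Receptor tyrosine kinases were expressed by 19 of 51 genes (37.3%, against 51.9% of all protein-coding genes). AXL, the receptor for the ligand GAS6, stood at 109, 143 and 138 FPKM and EPHA2, an ephrin receptor, at 139, 87.5 and 88.4, so their order differed between libraries. MET, the receptor for hepatocyte growth factor, stood at 56.9 ± 4.97 and EGFR at 26.1 ± 1.10. The EGFR relatives ERBB2 and ERBB3 stood at 0.0492 ± 0.0121 and 0.0529 ± 0.0189. Ligands differed too: GAS6 was expressed at 10.3 ± 0.412 and the EGFR ligand HBEGF at 36.1 ± 9.49, while HGF, the ligand of MET, stood at 0.0652 ± 0.0655.

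Of 36 adhesion and tumour-associated proteins 28 were expressed (77.8%). BSG (basigin, which induces metalloproteinases in other cells) led at 176 ± 8.60, with NT5E (CD73, which makes adenosine) at 131 ± 6.01, CD63 at 119 ± 4.74, the aminopeptidase ANPEP at 89.2 ± 15.4 and the hyaluronan receptor CD44 at 69.3 ± 3.19. With transcript lengths CD44 moved to the first place at 521. Of 19 cadherins 6 were expressed (31.6%), with CDH24 at 14.03 ± 2.05 and CDH13 at 9.70 ± 0.188 after CDH2 and CDH5. With transcript lengths CDH13 came first of the cadherins, at 59.4.

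Class I antigen presentation was expressed unevenly. B2M, the invariant light chain, stood at 69.2 ± 0.961, HLA-E at 65.8 ± 5.77 and HLA-C at 57.6 ± 4.45, and HLA-B at 6.83, 5.20 and 5.42 FPKM. HLA-B lay below HLA-C in every library. Reads of these alleles can be lost or shared where they differ from the reference. With transcript lengths B2M stood at 416, HLA-C at 94.0, HLA-E at 75.3 and HLA-B at 26.7, so the gaps depend on the length used. CD274 (PD-L1), which restrains T cells, stood at 24.5, 14.2 and 18.5 FPKM.

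Cytokine receptors were expressed by 19 of 30 genes (63.3%, against 51.9% of all protein-coding genes), led by TNFRSF12A, the receptor for TWEAK, at 140.4, 101.7 and 112.1 FPKM. The oncostatin M receptor OSMR (32.4 ± 6.35), its shared partner IL6ST (29.8 ± 8.37) and IL31RA, which joins OSMR in the interleukin 31 receptor (13.3 ± 1.71), were all above 10 FPKM. TGFBR2, the type II receptor for TGF-beta, stood at 61.2 ± 3.77, against 5.13 ± 0.343 for its type I partner TGFBR1. NOTCH2 (27.7 ± 2.48) and the frizzled receptor FZD2 (21.5 ± 0.255) led their lists, in which 6 of 12 (50%) and 13 of 16 genes (81.25%) were expressed.

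The 291 genes of the secreted lists took 4.97 ± 0.483% of nuclear protein-coding FPKM and the 230 surface genes 1.44 ± 0.0842%. MMP1 accounted for most of the metalloproteinase and TIMP list, which took 1.86 ± 0.0955%. The inhibitors TIMP1 and TIMP3 stood at 127 ± 13.6 and 112 ± 40.5, the membrane enzyme MMP14 at 59.5, 62.3 and 59.3 FPKM and the gelatinase MMP2 at 17.5 ± 4.71, with 9 of 22 genes expressed. TIMP3 stood at 136, 135 and 65.6 FPKM, so replicate 3 was low.

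The plasminogen system was high on both sides. The plasminogen activators PLAT and PLAU stood at 263 ± 65.3 and at 174, 164 and 188 FPKM, their inhibitor SERPINB2 at 96.4 ± 3.21 and the urokinase receptor PLAUR at 34.7 ± 4.11.

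Chemokines that draw neutrophils through the receptor CXCR2 were the ones expressed highest. CXCL5 stood at 275.1, 280.3 and 344.4 FPKM and CXCL8 at 279, 151 and 175, with their order differing in replicate 1; with transcript lengths CXCL8 led at 382. CXCL1 stood at 36.1 ± 4.19, and 14 of 25 chemokines had no count. CCL2, which draws monocytes, stood at 20.3, 20.9 and 2.28 FPKM, low in replicate 3, so its mean of 14.5 was 20.6 without that library. Of 26 interleukins and colony-stimulating factors 10 were expressed, led by LIF (18.3 ± 3.16), IL1B (9.79 ± 4.24) and IL11 (7.86 ± 2.24), whereas IL6 stood at 0.406 ± 0.333.

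Growth factors were expressed by 19 of 32 genes (59.4%, against 51.9% of all protein-coding genes). Progranulin (GRN, 65.4 ± 5.27), midkine (MDK, 53.7 ± 9.95), VEGFB (51.3 ± 2.86) and the lymphatic factor VEGFC (20.5 ± 4.34) stood ahead of VEGFA (4.38 ± 0.780). With transcript lengths the order of the last pair turned, with VEGFA at 56.6 and VEGFC at 24.01. Of 21 FGF genes 3 were expressed, and FGF5 stood at 26.9, 35.3 and 26.3 FPKM, above FGF2 (4.33 ± 0.518) and FGF1 (1.90 ± 0.460) in each library. Epiregulin (EREG), an EGFR ligand, stood at 29.3, 10.9 and 5.51 FPKM, with replicate 1 high and a mean of 15.2 that was 8.19 without it.

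WNT pathway genes were split by role. The secreted antagonists DKK1 (231 ± 108), SFRP1 (212 ± 14.7) and DKK3 (90.9 ± 10.8) were high, and the WNT ligands were low, with WNT5B at 4.13 ± 0.373 the only ligand expressed and WNT3 next at 0.729. DKK1 stood at 354.7, 177.5 and 159.5 FPKM, with replicate 1 the highest. Beta-catenin (CTNNB1) stood at 29.7 ± 2.45, while its target and feedback gene AXIN2 stood at 0.228 ± 0.0489. Among the TGF-beta family the activin antagonist FST (64.6 ± 14.9), TGFB1 (30.01 ± 5.74) and the activin chain INHBA (17.6 ± 6.12) were expressed, with 14 of 28 in all (50%, against 51.9% of all protein-coding genes).

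Of 31 collagen chains 16 were expressed (51.6%, against 51.9% of all protein-coding genes), led by COL6A2 at 118 ± 16.5, COL1A1 at 103 ± 36.9 and COL6A1 at 76.9 ± 17.2, and COL3A1 stood at 0.00915. Of 15 laminin and basement membrane genes 11 were expressed, with LAMB3 (82.3 ± 15.3), LAMB1 (73.3 ± 13.5) and LAMC1 (70.2 ± 1.39) not separable in order. Among 30 matricellular and matrix glycoproteins 22 were expressed; below CYR61 came galectin 1 (LGALS1) at 529 ± 87.9 and CTGF at 348, 328 and 474 FPKM. Of 16 complement and acute phase genes 2 were expressed, and PTX3 was the only one at 10 FPKM or more.

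**Figure D4:**
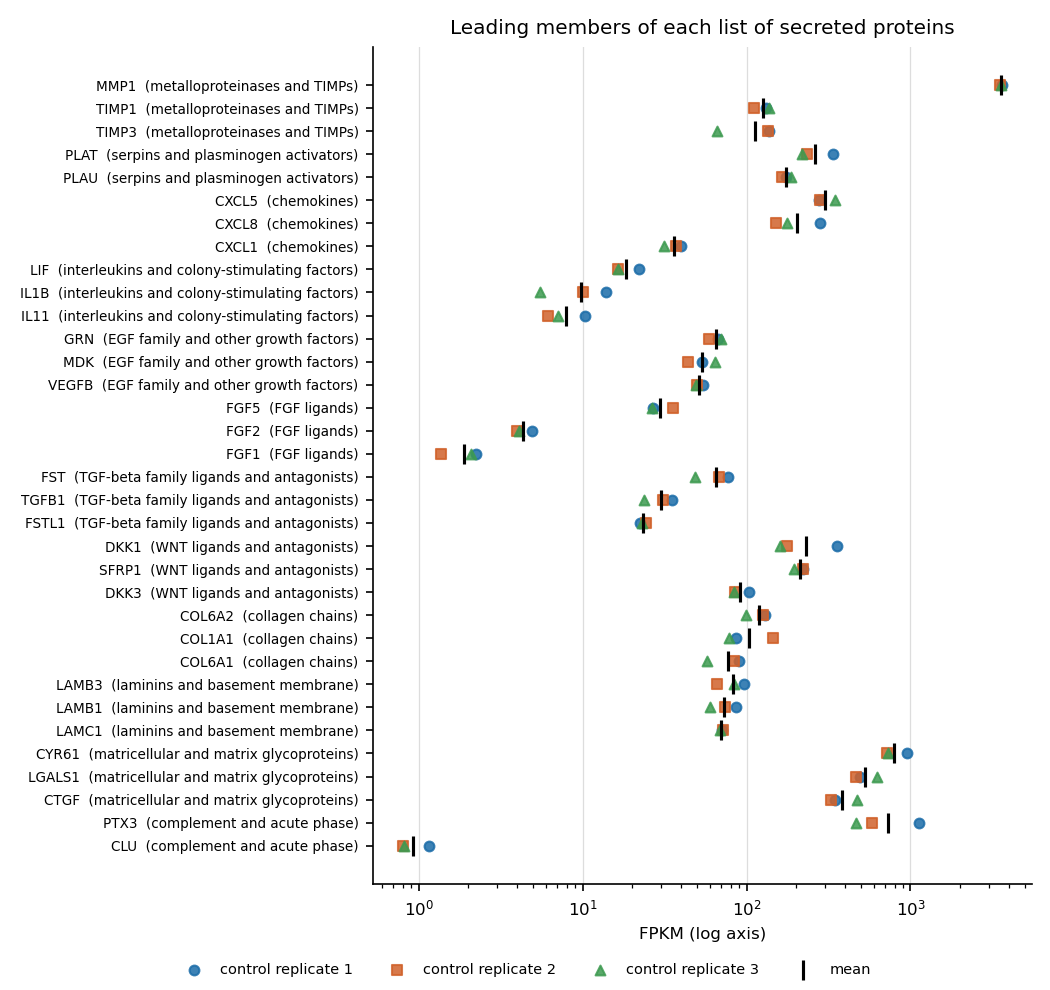
FPKM (log axis) of up to 3 leading members of each list of secreted proteins, with 1 symbol per control library and a bar at the mean. MMP1 lies at 3538 to 3622, CYR61, LGALS1, CTGF and PTX3 between 328 and 1123, and TIMP3 shows replicate 3 below the other libraries.

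Among signalling genes, the RAS-MAPK list was expressed throughout, at 25 of 25 genes and a median of 15.9 FPKM. Its highest members lie at the output end of the pathway: FOSL1 (385 ± 23.4), the cyclin CCND1 (163 ± 8.06), the ERK phosphatase DUSP5 (71.4 ± 13.9) and the feedback inhibitor SPRY2 (59.2 ± 10.6). The kinases and GTPases upstream were lower, with NRAS at 34.3 ± 2.60 and BRAF at 2.70 ± 0.253. The PI3K-AKT list was expressed in 19 of 20 genes at a median of 5.83 FPKM. The exception, PIK3R2, shares 87% of its exonic bases with another gene.

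AP-1 factors were expressed unequally. FOSL1 was followed by JUN at 88.3 ± 9.59 and FOSL2 at 20.8 ± 1.32, while FOS and FOSB, the immediate early members, stood at 0.596 ± 0.132 and 0.636 ± 0.102. MYC stood at 116, 68.2 and 80.3 FPKM, highest in replicate 1.

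All 16 genes of the YAP and TEAD list were expressed, at a median of 15.4 FPKM. YAP and the related WWTR1 (TAZ) are co-activators that bind DNA through TEAD factors. YAP1 stood at 111, 98.4 and 115 FPKM and WWTR1 at 5.81 ± 0.160, and TEAD4 (16.6 ± 1.87) and TEAD1 (14.2 ± 1.25) led the TEAD genes. The target genes CYR61, CTGF and ANKRD1 (299.7 ± 15.2) were the highest members, in that order in each library. The target AXL came next by its mean (130.2 ± 18.3) but stood below YAP1 in replicate 1, and 13 of the 15 neighbouring pairs in the list kept their order.

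The remaining pathway lists had medians of 0.610 FPKM (hedgehog) to 7.51 FPKM (NF-kB), below those of the RAS-MAPK and the YAP and TEAD lists. The NF-kB median lay above the 5.83 FPKM of the PI3K-AKT list. NF-kB genes were expressed in 13 of 14 cases, with NFKB2 (25.3 ± 1.75) and RELA (22.7 ± 0.671) first. In the JAK-STAT list 13 of 16 were expressed, with JAK1 at 36.9 ± 2.35 the highest. SMAD3 (48.8 ± 5.85) led the SMAD list, 5 of 11 hedgehog genes were expressed, and among 30 nuclear receptors ESRRA (36.6 ± 3.14) and NR2F2 (27.1 ± 0.874) were the highest of 19 expressed. The oestrogen receptor ESR1 and the progesterone receptor PGR stood at 0.0621 ± 0.0109 and 0.823 ± 0.183.

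Cell cycle genes were expressed in 27 of 29 cases. CCND1 stood at 155, 165 and 171 FPKM, whereas CCND2 had no count. CDKN2A, which codes for the inhibitor p16, stood at 98.5, 78.9 and 87.7 FPKM, against 2.80 ± 0.204 for CDKN1A (p21). The ubiquitin ligase MDM2 stood at 3.08 ± 0.0327. With transcript lengths MDM2 stood at 45.9 and CDKN1A at 4.06, so the low level of MDM2 depends on the length used. The proliferation genes TOP2A and MKI67 stood at 67.3 ± 6.39 and 26.1 ± 5.50.

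The highest lincRNA was AP005233.2 (chr11:69371463-69372512 in GRCh38, plus strand), at 217, 207 and 183 FPKM, and was the only one at 100 FPKM or more. NORAD, which binds Pumilio proteins, followed at 75.6 ± 8.17, then LINC02376 at 54.8 ± 5.75, SNHG8 at 47.9 ± 2.59 and LINC00973 at 42.2 ± 4.93.

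The spread between libraries was small for most genes. The coefficient of variation (CV, the SD as a percent of the mean) of expressed protein-coding genes had a median of 10.4%, with quartiles of 6.501% and 15.7%, where counting alone would give a median of 3.16%. Genes at 100 FPKM or more had a median CV of 10.6% against 0.835% from counting, so counting error was a small part of their spread. The common biological coefficient of variation that edgeR fitted to the counts of 14456 genes was 16.7%. Of 10353 expressed genes 93 (0.898%) had a CV of 50% or more. At mean FPKM 50 or more the steadiest gene was ITGB1 (CV 0.213%), then RPN2 (0.439%), GANAB (0.676%), GRINA (0.724%) and PTBP1 (0.843%), and MMP1 had 1.17%.

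The genes of highest CV were mostly those high in replicate 1. HSPA1A and HSPA1B, the inducible HSP70 chaperones, stood at 196, 15.5 and 19.2 FPKM and at 168, 14.7 and 13.3 FPKM, with the caution that these near-identical genes share reads. The HSP40 co-chaperone DNAJB1 stood at 184, 37.6 and 35.9 FPKM. Replicate 1 was 2-fold or more above both other libraries in 17 of 6732 protein-coding genes of mean FPKM 5 or more, among them the ER chaperone HSPA5 (494, 234 and 245), HERPUD1 (31.7, 9.53 and 11.8), DDIT3 (15.1, 6.47 and 7.27), DDIT4, DEDD2, SLC1A3, SLC5A3, EREG and the phosphatase DUSP1 (158, 52.6 and 55.1). It was 2-fold or more below both in 3, including the cold-induced RBM3 (14.96, 32.1 and 43.3).

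Replicate 3 was the lower library in 17 genes and the higher in 0 by the same rule, and replicate 2 the higher in 1 and the lower in 1. The 17 were CCL2, TIMP3, the proteoglycan BGN (29.2, 33.6 and 12.9), the collagen COL5A2 (15.9, 15.1 and 6.52), the laminin LAMA4 (11.4, 12.97 and 5.15), thrombospondin 1 (THBS1; 16.7, 23.8 and 7.44), IGFBP7, SERPINF1, SPOCK1, the collagen receptor MRC2, and CD70, CHRNA1, CLDN11, MYADM, NNMT, NRG1 and PTGS1. Which step of culture, transfection or library making these differences came from was not tested.

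**Figure D5:**
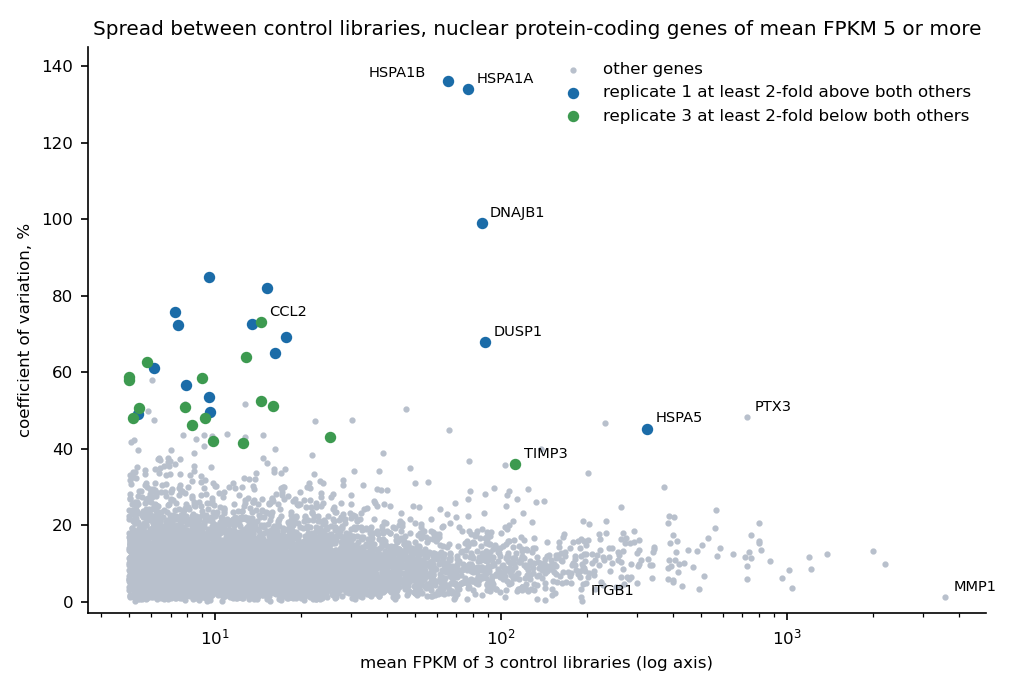
CV between the 3 control libraries (percent) against mean FPKM (log axis) for nuclear protein-coding genes of mean FPKM 5 or more. Blue points are genes at which replicate 1 is at least 2-fold above both other libraries (HSPA1A and HSPA1B highest), green points those at which replicate 3 is at least 2-fold below both (CCL2 and TIMP3 among them), and MMP1 and ITGB1 lie near 0.

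The order of genes within a list was resolved only where levels lay apart: of 528 pairs of neighbouring expressed members in the lists, 314 kept the same order in all 3 libraries. Genes that lie mostly inside others were low. Of 525 protein-coding genes with 90% or more of their exonic bases inside other genes 1 was expressed and 71.6% had no count, against 47.7% expressed among 11097 genes with no overlap and 63.9% among 7721 with an overlap under 50%. Of the list genes 20 share 50% or more of their exonic bases, including MIF, IGF1, IGF2, the aldolase ALDOA (2.04 FPKM) and CD68, and a low level of such a gene cannot be read as absence.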

How the data were processed

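The authors deposited 2 tables of 58735 genes (GENCODE release 29 lengths, GRCh38.p12 per the submitters' processing notes): raw counts per gene and FPKM, with gene lengths in bases as another column. The aligner, the counter and its strand setting: not given in the sources used here. The labels' protocols name both poly(A) enrichment and rRNA depletion. DESeq2 is named in the submitters' processing notes. The 3 control columns were used as deposited. The deposited FPKM divides counts by the joined exons of a gene and by 0.988 to 1.03 times the library total. The limit that a count of 0 allows is 3 counts over the 71164020 counts of the 3 libraries, or 0.0422 CPM (computed here), turned to FPKM per gene; it covers counting error only.

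Levels, SDs and CVs were computed with pandas 2.3.3, and the TMM factors and the common dispersion with edgeR 4.0.16 (R 4.3.3), with DESeq2 1.42.0 size factors as an alternative. The spread and dispersion steps were tested on simulated data. Members of 56 lists (1032 distinct genes) were matched by symbol. Named genes are the 20 nuclear protein-coding genes of highest mean FPKM, up to 5 highest and the defining members of each list, the genes of highest CV (mean FPKM of 5 or more) and of lowest CV (50 or more), the 5 highest lincRNAs, and further list members where a family is described. CPA4, the transcription factors outside the lists, the paired ratios, the genes high or low in a single library and the printed promoters were named after their values were seen. The members and lists were chosen with earlier results of these data known. Promoters are RefSeq's; protein sequences were not used here. Some genes that the naming rule would name are not reported here. With 1 group no test between groups was made. Alternatives were the threshold, unit, scaling, low-value filter, gene length and leaving out each library.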

Additional observations from a re-analysis of the deposited data

How the results depend on the processing

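No paired analysis was possible because the description covers 1 group and makes no test. At a threshold of FPKM 5 in place of 1, 6732 protein-coding genes and 359 list genes were expressed, against 10353 and 549; the other thresholds and units gave 10231 to 15514 protein-coding genes. The 100 most abundant genes took 18.6% with all genes in the denominator, 17.8% by counts and 26.2% with median transcript lengths, against 24.04%. The median CV was 9.15% at FPKM 10 or more, 13.5% with a mean count of 1 or more and 9.27% from log2(FPKM + 1), and 10.3% to 10.8% with TMM, DESeq2 or log2(FPKM + 0.1), against 10.4%. Leaving out each library in turn gave 10321 to 10378 expressed genes, 23.6% to 24.6%, a median CV of 7.82% to 9.61%, and 541 to 553 list genes. A CV of 2 libraries has a lower median than one of 3 by construction. Of 334 named genes 330 kept their level within 1 SD with TMM factors. With median transcript lengths 106 did, since that length raised 40.3% of expressed genes 2-fold or more, and 39 of 56 lists kept their first member. Besides the changes given above, first place went to HOXC4, HOXD8, LAMB1, LGALS1, AKT1, RELA, GLI3, NR2F2, CDKN2A, ACTB and MT2A in their lists. TPM are 3.57 to 3.69 times the FPKM, so 19 did. Depth limits the genes near 0 counts, where single counts set the value.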

Other observations

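Housekeeping groups outside the lineage, surface, secreted and signalling lists were high. Of 31 genes of the actin cytoskeleton 27 were expressed and 14 reached 100 FPKM; below TMSB10 and ACTB came ACTG1 (cytoplasmic gamma actin) at 715 ± 84.3 FPKM, the actin-binding profilin PFN1 at 400.8 ± 22.8 and TMSB4X, the relative of TMSB10, at 269 ± 12.3. TMSB10 exceeded TMSB4X 7.39-fold, in the same order in all 3 libraries. With transcript lengths TMSB10 stood at 2001 and TMSB4X at 659, a smaller gap. The list took 2.90 ± 0.0787% of nuclear protein-coding FPKM.

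Glycolysis genes were expressed in 20 of 22 cases and took 1.26 ± 0.0511%. ENO1 (enolase) stood at 485, 483 and 512 FPKM, PKM (pyruvate kinase) at 281 ± 16.5 and LDHA (lactate dehydrogenase) at 119.7, 150.3 and 164.1 FPKM. Of 23 metallothionein and S100 genes 11 were expressed (47.8%, against 51.9% of all protein-coding genes). They were led by the calcium-binding S100A6 at 338 ± 20.9 and the metal-binding MT2A at 267 ± 48.0, whereas S100B had no count.

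Some abundant genes lay outside all lists and were named after their values were seen. Among them were SRGN (serglycin, a proteoglycan of secretory granules) at 301 ± 28.0 FPKM and UCHL1 (a ubiquitin hydrolase of neurons) at 286 ± 18.9. G0S2 (an inhibitor of triglyceride lipase) stood at 234 ± 49.3 and the cholesterol enzyme DHCR7 at 499, 325 and 291 FPKM, highest in replicate 1.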
